A study of Mus musculus with 20 samples.

Results

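The inhibitors of cyclin-dependent kinases (CDKs) and the retinoblastoma family were taken from the gene lists by symbol. The set held 10 genes, all of which were found among the 27998 genes of each single-cell RNA-seq (scRNA-seq) library and among the 24062 genes of the bulk RNA-seq. They were the CIP/KIP inhibitors Cdkn1a (p21), Cdkn1b (p27) and Cdkn1c (p57), the INK4 inhibitors Cdkn2a (p16 and p19Arf), Cdkn2b (p15), Cdkn2c (p18) and Cdkn2d (p19), and the pocket proteins Rb1, Rbl1 (p107) and Rbl2 (p130). The study followed neural stem cells (NSCs) of the mouse dentate gyrus during early ageing. EGFP-positive cells were sorted from Nestin-EGFP mice, in which EGFP is driven by regulatory sequence of the Nestin gene, at postnatal day 5 (P5), 12 weeks (12w) and 24 weeks (24w), with 1 scRNA-seq and 1 single-cell ATAC-seq (scATAC-seq) library per age. Cultured NSCs were infected with lentivirus carrying a control shRNA or an shRNA against Setd8, which encodes the enzyme that places 1 methyl group on lysine 20 of histone H4, and were collected after puromycin selection 3 days later. The cultured line came from embryonic cortex and had been passaged many times according to the study's methods, whereas its sample labels name the hippocampus.

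A cell enters S phase when cyclin D with CDK4 or CDK6, and then cyclin E with CDK2, phosphorylate the pocket proteins, which otherwise hold E2F factors at the promoters of replication genes. INK4 proteins bind CDK4 and CDK6, CIP/KIP proteins bind cyclin-CDK complexes more broadly, and p19Arf stabilises p53, of which Cdkn1a is a classical target. In the dentate gyrus, loss of several of these inhibitors is known to drive quiescent stem cells into division, and Cdkn2a transcripts are known to accumulate in aged or long-cultured cells.

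The promoters of the members that the results turn on are shown here because the single-cell ATAC-seq read their start sites and because the motifs of E2F and p53 link these genes to their own pathway. Sequences are the 250 bases before each RefSeq start site (GRCm38.p6, 5′ to 3′ on the strand of the gene), and 8 of the 10 members had an entry; Cdkn1c and Rb1 had none. Capitals mark an E2F motif (TTTCCCGC, TTTCGCGC, TTTGCCGC or TTTGGCGC), a pair of p53 half-site cores (CATGNNNNNNCATG) or a cell cycle homology region (CHR, TTTGAA), each searched on both strands, so that a CHR on the other strand reads TTCAAA. Cdkn2a has 2 start sites, of which site 1 begins the first exon of p19Arf and site 2, downstream of it, the first exon of p16. Cdkn1a also has 2, site 1 lying upstream of site 2.
Rbl1 (chr2:157204535-157204784, minus strand): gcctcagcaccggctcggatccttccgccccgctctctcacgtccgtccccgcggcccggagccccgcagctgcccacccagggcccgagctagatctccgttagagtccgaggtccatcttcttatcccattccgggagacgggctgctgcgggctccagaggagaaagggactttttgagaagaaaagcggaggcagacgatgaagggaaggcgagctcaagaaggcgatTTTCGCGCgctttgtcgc
Cdkn2a site 1 (chr4:89294620-89294869, minus strand): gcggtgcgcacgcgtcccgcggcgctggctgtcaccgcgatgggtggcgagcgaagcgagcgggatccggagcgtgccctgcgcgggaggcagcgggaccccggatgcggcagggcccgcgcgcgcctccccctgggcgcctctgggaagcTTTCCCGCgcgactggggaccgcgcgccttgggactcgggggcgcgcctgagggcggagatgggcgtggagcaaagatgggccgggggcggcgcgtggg
Cdkn2a site 2 (chr4:89282193-89282442, minus strand): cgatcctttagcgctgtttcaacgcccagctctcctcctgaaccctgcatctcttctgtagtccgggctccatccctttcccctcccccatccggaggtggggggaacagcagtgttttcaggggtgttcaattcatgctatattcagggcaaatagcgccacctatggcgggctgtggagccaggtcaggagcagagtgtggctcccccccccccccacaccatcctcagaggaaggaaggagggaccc
Cdkn1a site 1 (chr17:29090729-29090978, plus strand): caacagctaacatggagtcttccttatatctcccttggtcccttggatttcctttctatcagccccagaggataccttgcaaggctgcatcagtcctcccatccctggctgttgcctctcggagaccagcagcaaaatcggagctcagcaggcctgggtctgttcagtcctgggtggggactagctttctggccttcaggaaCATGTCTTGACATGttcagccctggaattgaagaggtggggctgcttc
Cdkn1a site 2 (chr17:29093519-29093768, plus strand): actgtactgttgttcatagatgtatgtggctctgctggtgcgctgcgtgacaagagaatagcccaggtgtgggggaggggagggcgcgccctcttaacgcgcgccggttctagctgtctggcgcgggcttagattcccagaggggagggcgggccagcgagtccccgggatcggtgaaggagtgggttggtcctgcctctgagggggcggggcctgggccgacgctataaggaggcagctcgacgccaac
Cdkn2b (chr4:89311033-89311282, minus strand): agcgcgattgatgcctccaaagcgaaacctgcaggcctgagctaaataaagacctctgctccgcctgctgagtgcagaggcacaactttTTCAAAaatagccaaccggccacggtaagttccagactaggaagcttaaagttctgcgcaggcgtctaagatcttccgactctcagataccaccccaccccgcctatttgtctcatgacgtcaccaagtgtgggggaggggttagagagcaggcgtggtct
Rbl1 carried TTTCGCGC at -18 to -11 from its start site, and Cdkn2a site 1 carried TTTCCCGC at -99 to -92. Of all 32851 promoter windows of 300 bases, 2.26% held an E2F motif of this spelling, against 2 of the 11 windows of the members. The paired p53 cores were found in 0.712% of all windows and in 1 window of the members, that of Cdkn1a site 1, at -48 to -35. The CHR was found in Cdkn2b and Rbl2, and in 17.9% of all windows. GC boxes (GGGCGG) stood in 9 of the 11 windows of the members and in 35.7% of all windows. These matches describe letters only and were not tested as binding sites.

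After removal of barcodes of low quality and of doublets, 12752, 5271 and 2794 cells were kept at P5, 12w and 24w, with median counts of unique molecular identifiers (UMIs) of 4261, 2271 and 2178 per cell. Clusters were named from fixed markers and are written as "-like" classes. There were 1150, 341 and 98 NSC-like cells at the 3 ages, 1312, 242 and 44 cells like neural progenitor cells (NPCs), 602, 301 and 51 like early immature neurons (IMN1), and 563, 397 and 45 like later immature neurons (IMN2). Astrocyte-like (AS) cells numbered 3699, 361 and 110, and pericyte-like (PC) cells 362, 2417 and 1735, so that the adult sorts held far more vascular cells than the P5 sort. Sex differed between the libraries: 31.8% of P5 cells and 29.5% of 24w cells had UMIs of Y-linked genes and none of Xist, whereas 92.4% of 12w cells had Xist and none of Y-linked genes. Of the P5 cells, 20.1% had Xist alone, so that the P5 library held both sexes, against 0.0358% of 24w cells. Between 12w and 24w, age and sex cannot be told apart. Separately, 160, 123 and 88 barcodes of the P5, 12w and 24w libraries were also kept in another library. Whether this is more than chance reuse of a barcode was not tested. Because each age was 1 library, comparisons of ages have no test, and the 95% intervals given (exact Poisson for a level, exact conditional for a ratio) cover counting error only. Orders of classes are given over those with at least 50 cells at that age unless stated otherwise. Levels are UMIs of the gene per 1000000 UMIs of the class (CPM), read from 3′ ends, and are compared within a gene.

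**Figure D1:**
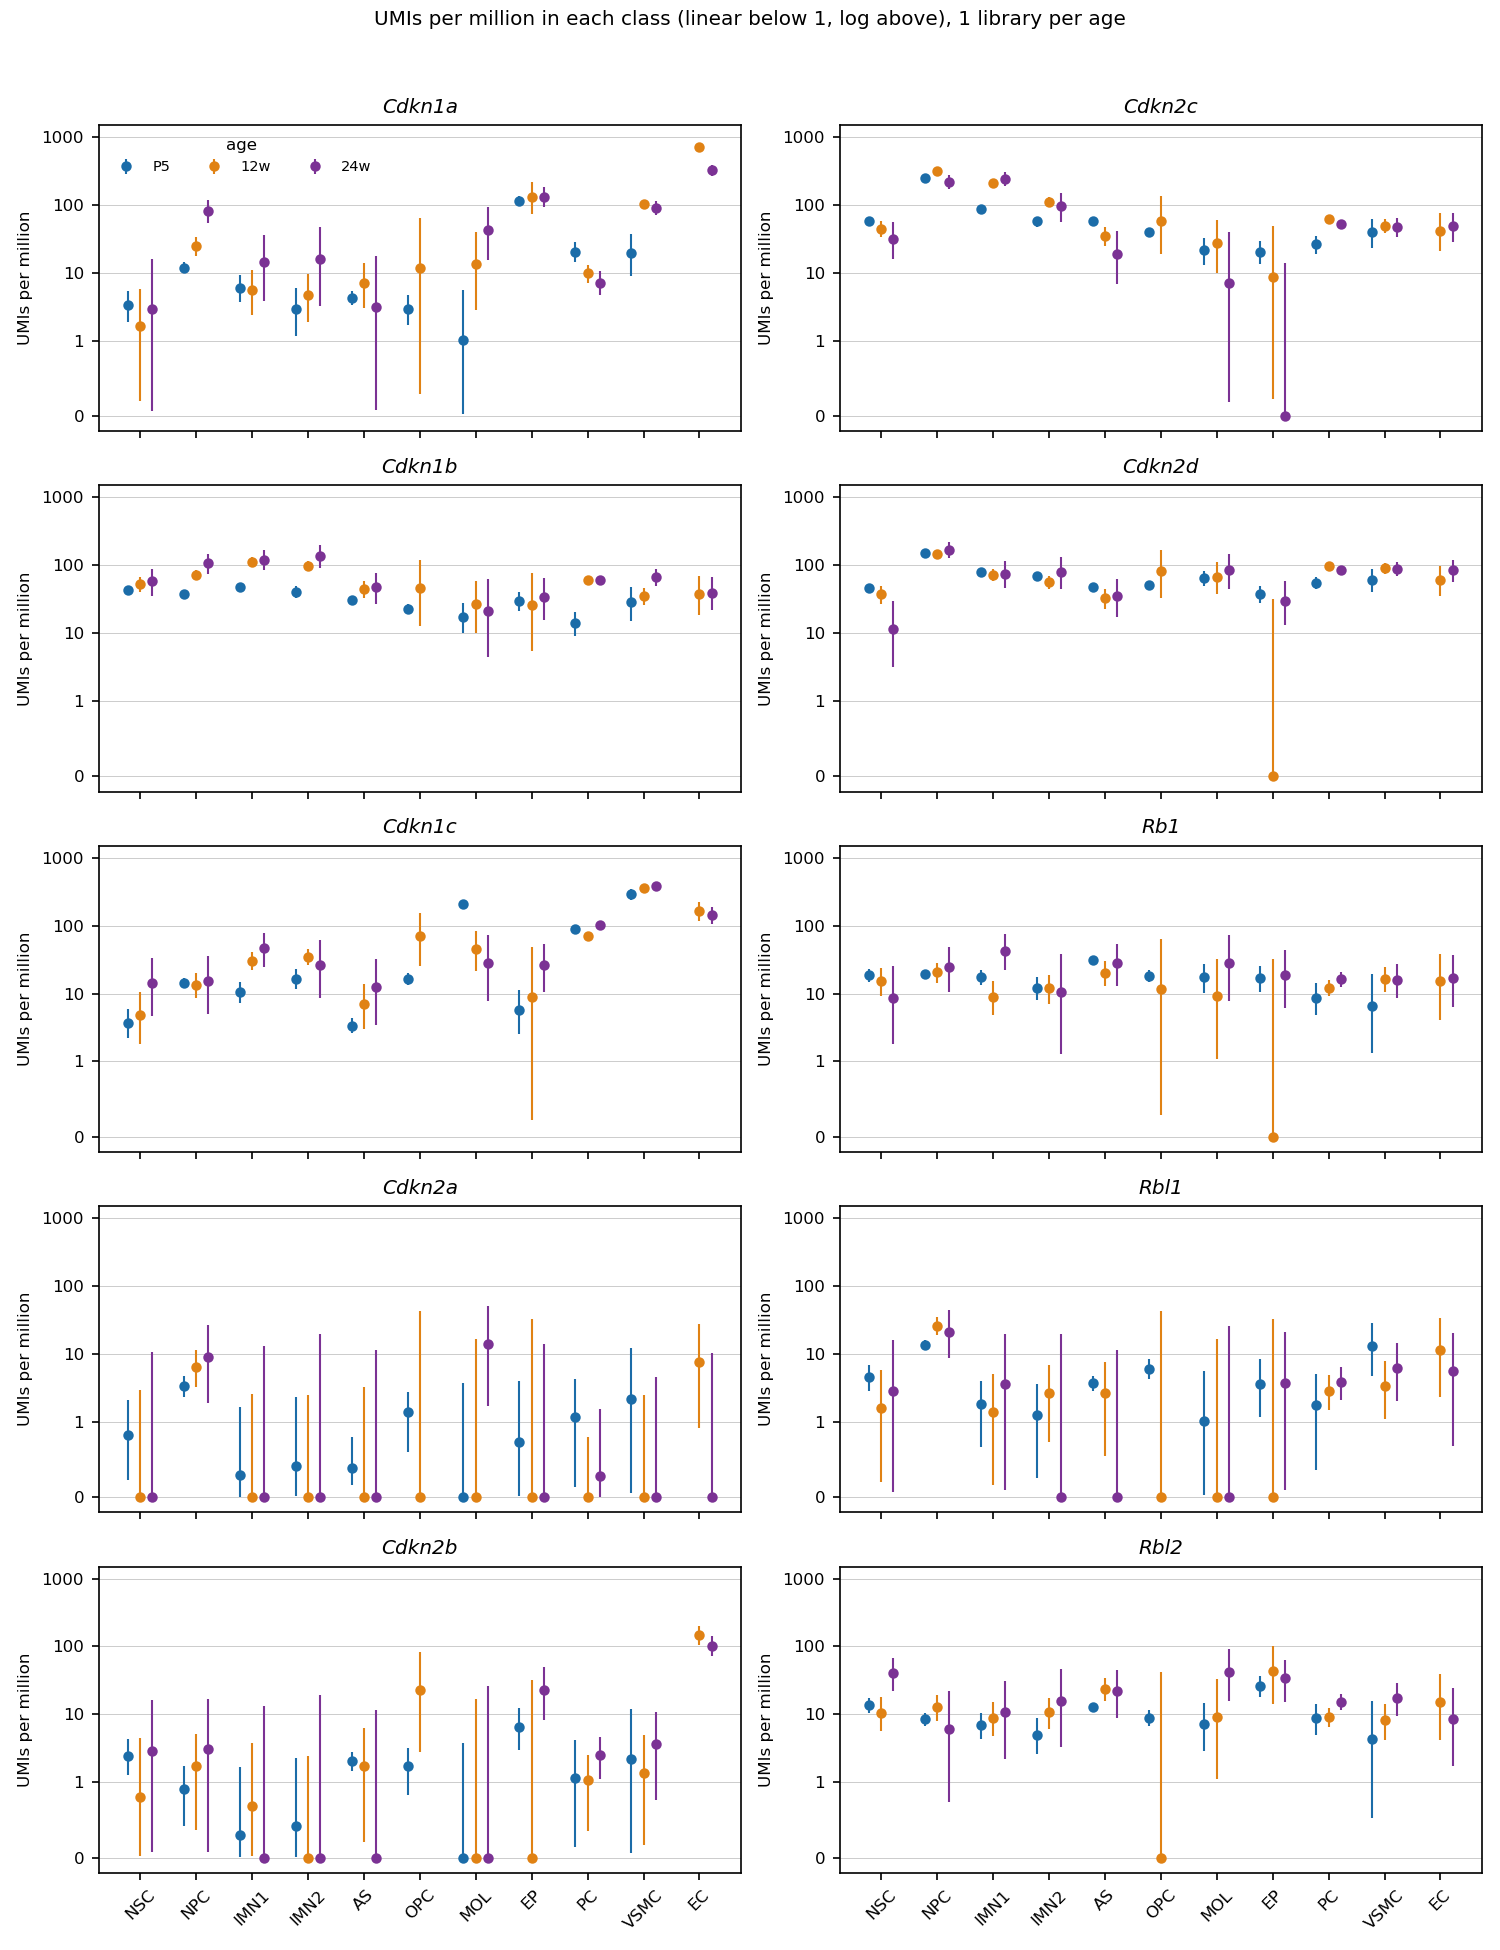
Level of each of the 10 genes (CPM, the UMIs of the gene scaled by the total UMIs of the class) in each class of cells at P5, 12w and 24w; bars are 95% exact Poisson intervals, the axis is logarithmic above 1 CPM and linear below, and classes with fewer than 20 cells at an age are not drawn. Cells like inhibitory neurons are not drawn. Cdkn2c and Cdkn2d were highest in NPC-like cells at P5 (249 and 150 CPM), and Cdkn1a was low in NSC-like cells (3.30 CPM) and high in ependymal-like (EP) cells (115 CPM).

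Among the neural classes, the INK4 genes Cdkn2c and Cdkn2d and the pocket protein gene Rbl1 had, at P5 and 12w, their highest levels in NPC-like cells, the class defined by markers of division, while Cdkn1b at P5 was about as high in NSC-like cells and neurons as in NPC-like cells. Cdkn1a, Cdkn1c, Cdkn2a and Cdkn2b were low in NSC-like cells at every age. The highest levels of Cdkn1a, Cdkn1c and Cdkn2b were found in vascular, ependymal or oligodendrocyte classes. Across classes of at least 50 cells with all ages pooled, the level of Cdkn1a ranged 155-fold and that of Cdkn1c 93.7-fold, against 2.52-fold for Rb1 and 4.40-fold for Cdkn2d.

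Of the CIP/KIP genes, Cdkn1a, which arrests cells after DNA damage, stood at 3.30, 1.62 and 2.89 CPM in NSC-like cells at P5, 12w and 24w, from 16, 2 and 1 UMIs. Free RNA of the suspension predicted up to 140% and 113% of the adult UMIs there, so these were not separated from background. Its composition came from near-empty barcodes, and its amount from UMIs of pericyte and endothelial markers within the class. Each percentage predicted from free RNA in this report is therefore an upper bound. In NPC-like cells Cdkn1a stood at 11.9, 24.6 and 82.2 CPM, and in EP-like cells at 115, 131 and 131 CPM. Endothelial-like (EC) cells had the highest levels of the whole set of classes, 299, 713 and 323 CPM, although only 12 of these cells were kept at P5. At P5 the order began with EP-like cells, whose interval of 97.5 to 134 CPM lay above that of every other class of at least 50 cells, while PC-like cells (20.4 CPM), cells like vascular smooth muscle (VSMC, 19.6 CPM) and NPC-like cells (11.9 CPM) followed with overlapping intervals between neighbours. NSC-like cells did not differ beyond counting error from AS-like cells (4.26 CPM) or from cells like oligodendrocyte precursors (OPC, 2.94 CPM).

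Cdkn1b, the inhibitor that marks many quiescent and post-mitotic cells, was read at 42.8, 52.6 and 57.7 CPM in NSC-like cells and at 37.2, 72.0 and 107 CPM in NPC-like cells. In IMN1-like cells its level was 47.6, 112 and 121 CPM. At P5, among classes of at least 50 cells, the 4 highest, IMN1, NSC, IMN2 and NPC, did not differ between neighbours beyond counting error, and PC-like cells were lowest at 14.0 CPM. Inhibitory neuron-like (IN) cells, of which 71 of 96 came from 12w, stood at 150 CPM at that age (104 to 210), an interval that overlapped that of IMN1-like cells (95.1 to 130).

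Cdkn1c, an imprinted gene, stood at 288, 353 and 381 CPM in VSMC-like cells and at 87.9, 71.5 and 103 CPM in PC-like cells. Cells like mature oligodendrocytes (MOL) had 212 CPM at P5 (184 to 243) and 45.3 and 28.4 CPM at 12w and 24w. The adult values rest on 10 UMIs of 34 cells (21.7 to 83.4) and 4 UMIs of 24 cells (7.73 to 72.6). Both pools lie below the 50 cells used for orders of classes. Of the 195 cells of this class, 137 came from P5, and whether its stage of maturation differed between ages was not tested. In NSC-like cells the level was only 3.71, 4.85 and 14.4 CPM, from 18, 6 and 5 UMIs. Free RNA predicted 114% of the 12w UMIs and 77.1% of the 24w UMIs of Cdkn1c in NSC-like cells, so the adult level there was not separated from background.

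Of the INK4 genes, Cdkn2a was close to the limit of detection in nearly every class. The p16 and p19Arf transcripts share their 3′ exons, and neither UMIs nor bulk reads per gene tell them apart. NSC-like cells held 4 UMIs at P5 (0.824 CPM) and 0 at 12w and 24w, which allows up to 2.43 and 8.66 CPM by the 3-count limit. NPC-like cells held 33, 11 and 3 UMIs, or 3.35, 6.44 and 9.14 CPM. The 24w to P5 ratio of 2.73 had an interval of 0.536 to 8.71, so no change was detectable at this depth. Cdkn2b, which lies beside Cdkn2a on chromosome 4, was read at 62.9, 148 and 102 CPM in EC-like cells. In NSC-like cells it stood at 2.47, 0.809 and 2.89 CPM, from 12, 1 and 1 UMIs, so that both adult levels lay under the 3-count limit. In EP-like cells, the next class at P5, it stood at 6.54 CPM.

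Cdkn2c encodes an inhibitor of CDK4 and CDK6. Its level in NPC-like cells was 249, 317 and 219 CPM at the 3 ages, against 58.3, 44.5 and 31.8 CPM in NSC-like cells. IMN1-like cells had 86.5, 212 and 242 CPM, below NPC-like cells at P5 and 12w and not apart from them beyond counting error at 24w, and AS-like cells had 57.4, 35.0 and 18.9 CPM. At P5 the intervals of NPC-like (239 to 259 CPM), IMN1-like (76.7 to 97.1 CPM) and NSC-like cells (51.7 to 65.5 CPM) were apart. At 1000 UMIs per cell, 21.1% of P5 NPC-like cells and 4.87% of P5 NSC-like cells held a Cdkn2c UMI, against 66.6% and 20.3% at full depth (median 7109 and 4048 UMIs). In P5 cells of the mature oligodendrocyte and pericyte classes the thinned shares were 1.46% and 3.04%. The P5 library lists no near-empty barcodes, so free RNA could not be estimated at P5 for any gene. Cdkn2d, another inhibitor of CDK4 and CDK6, stood at 150, 148 and 167 CPM in NPC-like cells, the highest of the neural classes at P5 and 12w. In NSC-like cells it stood at 46.8, 37.2 and 11.5 CPM, the last from 4 UMIs.

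Of the pocket proteins, Rb1 had the narrowest range over classes of the 10 genes with all ages pooled, though not at P5 alone. It was highest at P5 in AS-like cells (30.8 CPM), with NPC-like (19.4 CPM) and NSC-like cells (18.5 CPM) next and not apart from each other. Rbl1, itself a target of E2F, stood at 13.5, 25.7 and 21.3 CPM in NPC-like cells, the highest of the neural classes at P5 and 12w, where the 24w level came from 7 UMIs of 44 cells with an interval of 8.57 to 43.9 CPM, and stood at 4.53, 1.62 and 2.89 CPM in NSC-like cells. Rbl2, the pocket protein of the DREAM complex in resting cells, showed the opposite order at P5, with 13.6 CPM in NSC-like cells (10.5 to 17.3) and 8.41 CPM in NPC-like cells (6.70 to 10.4), intervals that just failed to overlap. At 12w NSC-like cells had 10.5 CPM and NPC-like cells 12.9 CPM, with overlapping intervals. EP-like cells had 26.1, 43.8 and 33.8 CPM of Rbl2, the highest level at P5 and with all ages pooled, while at 24w NSC-like cells had 40.4 CPM.

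The members varied together only in part over 28 pools of cells of a class and age, which share the libraries and differ in depth. The Pearson correlation of log levels was 0.66 for Cdkn2c with Cdkn2d, 0.62 for Cdkn1b with Cdkn2c and 0.81 for Cdkn1a with Cdkn2b. Cdkn2d and Rbl2 varied in opposite ways, with a correlation of -0.64. The genes whose levels over the same pools were most like those of a member were Dek (0.91) and Usp1 (0.83) for Rbl1, Fam101b (0.89) and Klf2 (0.87) for Cdkn1a, and Hmcn1 (0.97) and Srgn (0.95) for Cdkn2b. For Cdkn2c they were Tmem183a (0.89) and Srsf4 (0.88), for Cdkn1b Brd9 (0.89) and Ubqln2 (0.87), and for Cdkn2d Inip (0.86) and Eif4a3 (0.81). For Cdkn1c they were 2010111I01Rik (0.87) and Vapb (0.87), for Rbl2 Mtx3 (0.84) and Itm2c (0.83), and for Rb1 Abcd2 (0.64) and Cic (0.64). Cdkn2a had too few UMIs for this comparison. Cdkn2b stood at 148 and 102 CPM in the EC-like pools at 12w and 24w and near the floor in most other pools. Its correlations, also that with Cdkn1a, therefore rest mainly on the EC-like pools.

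The question of age was put to each class as the ratio of the adult level to the P5 level, and a gene was counted as higher or lower where both adult libraries were at least 2-fold from P5 in the same direction with at least 20 UMIs in every pool on the higher side (0.5 UMI was added to each pool). In NSC-like cells 6 members had at least 20 UMIs at P5 or at both adult ages. Of these 0 passed this rule in either direction, against 3.04% of 10755 genes higher and 5.04% lower. Only Cdkn1b, with 20 UMIs at 24w, could have been counted as higher there. In NPC-like cells 1 of 9 was higher (1.56% of 11627 genes) and 0 were lower (4.58%). In IMN1-like cells 2 of 7 were higher (1.66% of 9459 genes) and 0 lower (3.29%), and in IMN2-like cells 1 of 5 was higher (1.29% of 8526 genes) and 0 lower (2.30%). The members past the rule in these neurogenic classes were Cdkn1a in NPC-like cells, Cdkn1b and Cdkn2c in IMN1-like cells, and Cdkn1b in IMN2-like cells. Rb1, Rbl1 and Rbl2 held at most 12 UMIs in any of NPC-like, IMN1-like and IMN2-like cells at 24w, below the 20 needed to be counted as higher. In NPC-like cells only Cdkn1a, Cdkn1b, Cdkn2c and Cdkn2d reached 20 UMIs at that age. Only Cdkn1b, Cdkn2c and Cdkn2d did so in IMN1-like cells, and only Cdkn1b in IMN2-like cells.

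**Figure D2:**
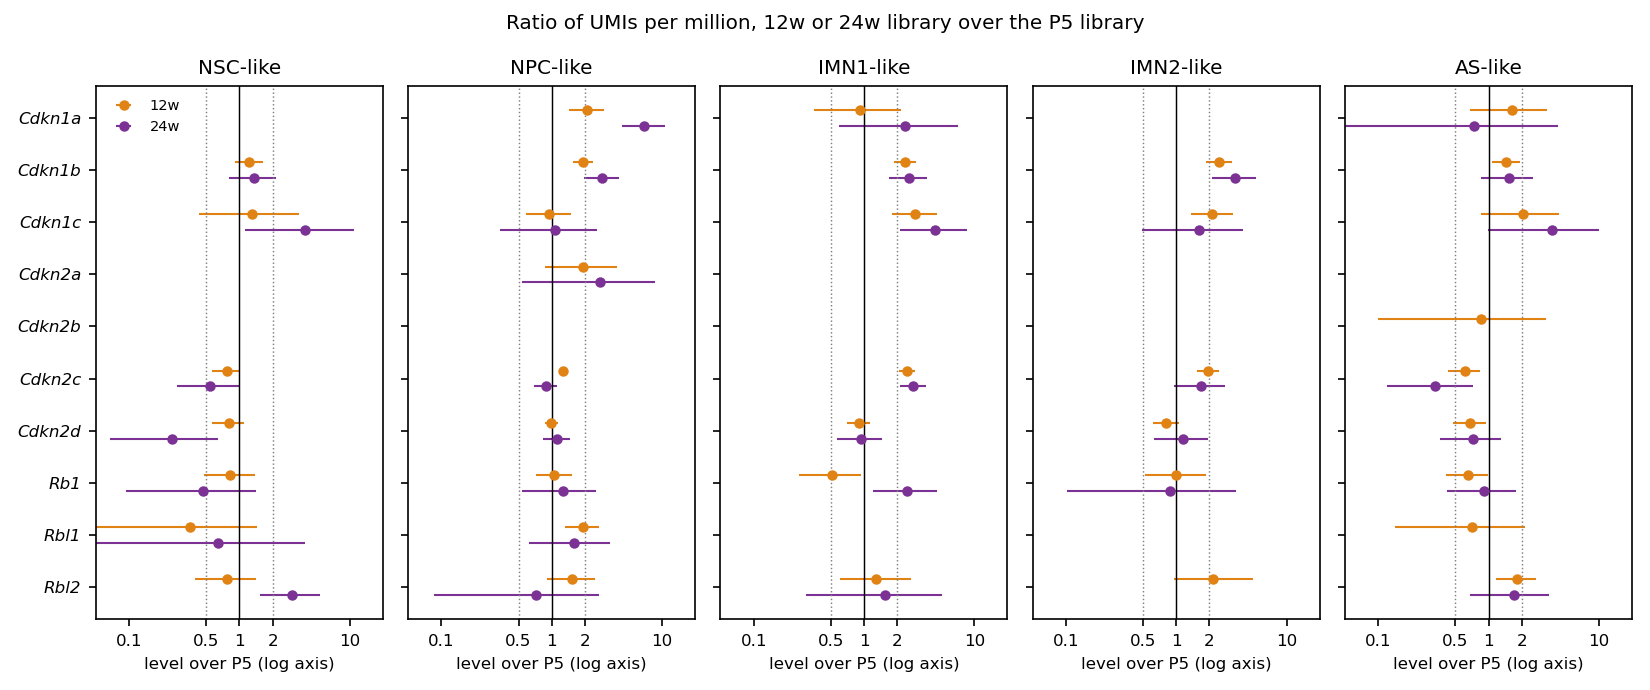
Ratio of the level at 12w and at 24w to that at P5 for the members in NSC-like, NPC-like, IMN1-like, IMN2-like and AS-like cells, on a logarithmic axis. Bars are 95% exact conditional intervals, and dotted lines mark ratios of 0.5 and 2. Genes are drawn with at least 20 UMIs in total and at least 1 at that age. Cdkn1b lay above 2 at both adult ages in IMN1-like (2.35 and 2.54) and IMN2-like cells (2.43 and 3.38), and also in PC-like cells, which are not drawn (4.27 and 4.30).

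In NPC-like cells the level of Cdkn1a was 2.07-fold that of P5 at 12w (1.42 to 2.97) and 6.93-fold at 24w (4.38 to 10.6). The 27 UMIs at 24w came from only 8 of 44 cells, the 42 UMIs at 12w from 32 of 242, and the 117 UMIs at P5 from 70 of 1312. Thinned to 1000 UMIs per cell, the share of NPC-like cells with a Cdkn1a UMI was 1.30%, 2.48% and 4.55% at the 3 ages, while 0 of 98 NSC-like cells at 24w held one. Free RNA predicted 8.83% of the 12w UMIs and 3.73% of the 24w UMIs. The 12w ratio fell just under 2-fold when the median gene was set to no change, since over all genes tested in these cells the median 12w and 24w log2 ratios were 0.13 and 0.16. Cdkn1b in the same cells was 1.93-fold higher at 12w (1.56 to 2.38) and 2.86-fold at 24w (1.96 to 4.06), and its 12w value alone missed the rule. Against P5 cells of the same sex as each adult library, both Cdkn1a and Cdkn1b passed. Cdkn2c, one of the INK4 genes of dividing progenitors, was 1.27-fold higher at 12w (1.16 to 1.40) and had a 24w ratio of 0.882 (0.688 to 1.11). Cdkn2d, the other, had a 24w ratio of 1.12 (0.837 to 1.46).

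In IMN1-like cells Cdkn1b was 2.35-fold higher at 12w (1.87 to 2.94) and 2.54-fold at 24w (1.70 to 3.70). Cdkn2c in the same cells was 2.45-fold higher at 12w (2.08 to 2.88) and 2.80-fold at 24w (2.12 to 3.66), and after thinning 7.14% of P5 cells, 21.3% of 12w cells and 19.6% of 24w cells held a Cdkn2c UMI. Against P5 cells of the same sex, Cdkn2c alone passed in IMN1-like cells. Cdkn1c was 2.88-fold (1.80 to 4.62) and 4.39-fold higher (2.13 to 8.50), but its 24w value rested on 13 UMIs, below the minimum. Cdkn2d, by contrast, had ratios of 0.898 (0.709 to 1.13) and 0.937 (0.570 to 1.46) in IMN1-like cells. In IMN2-like cells Cdkn1b was 2.43-fold (1.87 to 3.17) and 3.38-fold higher (2.11 to 5.26), and Cdkn2c was 1.95-fold (1.55 to 2.47) and 1.68-fold higher (0.964 to 2.75).

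NSC-like cells were thinly sampled in the adult libraries, which limited what could be read. Cdkn1b had ratios of 1.23 (0.914 to 1.63) at 12w and 1.35 (0.806 to 2.14) at 24w. Cdkn2d had a ratio of 0.796 (0.567 to 1.10) at 12w and of 0.247 (0.0667 to 0.641) at 24w, the latter from 4 UMIs of which free RNA predicted 86.5%. Cdkn2c lay at 0.763 (0.561 to 1.02) and 0.545 (0.269 to 0.990). Rbl2 had ratios of 0.774 (0.391 to 1.42) at 12w and 2.97 (1.54 to 5.35) at 24w, of which the 24w value alone was apart from P5. In AS-like cells 0 of 9 members passed the rule (3.19% of 12577 genes higher, 5.84% lower). No member held over 15 UMIs there at 24w, so none could be counted as higher. Both adult libraries gave Cdkn2c a lower level in AS-like cells, 0.610 of P5 (interval 0.434 to 0.837) and then 0.329 (interval 0.121 to 0.719). The make-up of this class also differed between ages. Its largest cluster held 2446 of 3699 cells at P5, 300 of 361 at 12w and 95 of 110 at 24w. How far this moved the ratio was not tested.

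In the vascular classes 2 of 7 members passed in PC-like cells, Cdkn1b higher (15.1% of 9878 genes) and Cdkn1a lower (7.07%). In VSMC-like cells 1 of 5, Cdkn1a, was higher (17.5% of 5812 genes) and 0 were lower (6.31%). PC-like Cdkn1b stood at 14.0, 59.6 and 60.0 CPM, and its level within a single cluster that held 276 of the 362 PC-like cells at P5 was 13.4, 47.5 and 35.7 CPM. PC-like Cdkn1a stood at 20.4, 9.75 and 7.15 CPM, but within that cluster at 17.9, 13.9 and 13.8 CPM, where the intervals overlapped. VSMC-like Cdkn1a was 5.19-fold (2.66 to 11.6) and 4.59-fold higher (2.29 to 10.4), from 9 UMIs in 65 cells at P5, so that it reached the minimum of UMIs only through the adult libraries and its count is a description. Neither EC-like nor EP-like cells had a member past the rule (0 of 3 and 0 of 6), where 20.2% of 2475 genes and 0.942% of 8490 genes were higher and 6.55% and 4.91% lower. No member held over 15 UMIs in EP-like cells at 12w, so none could be counted as higher there. In EC-like cells only Cdkn1a, with 38 UMIs at P5, could be counted as lower.

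The scATAC-seq libraries gave the accessibility of the members' start sites. All counts of each called peak that reached within 1000 bases of a start site were summed and scaled to CPM by the counts of the class. Nuclei took their class from the scRNA-seq by label transfer, and 65.2%, 91.2% and 96.6% of the 8788, 12638 and 6041 nuclei at P5, 12w and 24w passed the score of 0.5. Peaks had been called in each library, so a difference can also come from the stretch called, whose length is given beside the sites counted as higher or lower. Levels were not scaled by peak length, so different sites are not ranked by openness per base.

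In NSC-like nuclei the start sites of Cdkn1b (80.9, 72.2 and 79.1 CPM at P5, 12w and 24w), Cdkn2c (64.0, 63.7 and 69.1) and Cdkn2d (62.3, 56.6 and 74.4) had the highest counts of the set at every age. Their peaks covered 5508, 3532 and 1645 bases at P5, and this order is not one per base. The site of p16, Cdkn2a site 2, had the lowest counts of those with a peak in all 3 libraries, at 1.92, 2.39 and 1.77 CPM. Cdkn2a site 1, that of p19Arf, stood at 23.6, 19.8 and 14.2. In NPC-like nuclei site 1 stood at 39.6, 40.0 and 38.0 CPM and site 2 at 8.19, 10.2 and 10.1. The p16 site thus had a lower level than the p19Arf site in both classes, with a called peak of 720, 813 and 799 bases at P5, 12w and 24w against one of 2056, 2071 and 1799 bases. Rbl1, whose E2F motif lies just before its start site, stood at 44.0, 42.4 and 29.3 in NPC-like nuclei and at 32.4, 23.8 and 23.0 in NSC-like nuclei.

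Cdkn1a was open at site 2 in every class, while at site 1 no peak was listed at P5 and no class exceeded 2.68 CPM in the adult libraries. The adult peaks counted for site 1 (29091602 to 29092214 at 12w, 29091365 to 29092261 at 24w) lay downstream of its start at 29090979. They did not cover the paired p53 cores at 29090931 to 29090944, so these values are not the accessibility of the cores. Site 2 stood at 34.3, 34.5 and 30.1 CPM in NSC-like nuclei and at 42.9, 53.6 and 54.2 in NPC-like nuclei. In VSMC-like nuclei it stood at 114, 94.0 and 92.8, and in EC-like nuclei, of which P5 had 0, at 133 and 192. Cdkn2b was likewise most open in EC-like nuclei at 12w and 24w, at 50.9 and 43.9 CPM, against 17.1 and 15.5 in NSC-like nuclei. However, the intervals of EC-like nuclei (34.2 to 72.9 and 29.5 to 62.8) overlapped those of other classes. Among these were EP-like (27.6 to 37.5 and 33.9 to 50.6), VSMC-like (29.4 to 36.0 and 32.9 to 41.1) and MOL-like nuclei (23.1 to 57.0 and 20.9 to 47.0), and at 24w also IMN2-like nuclei.

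**Figure D3:**
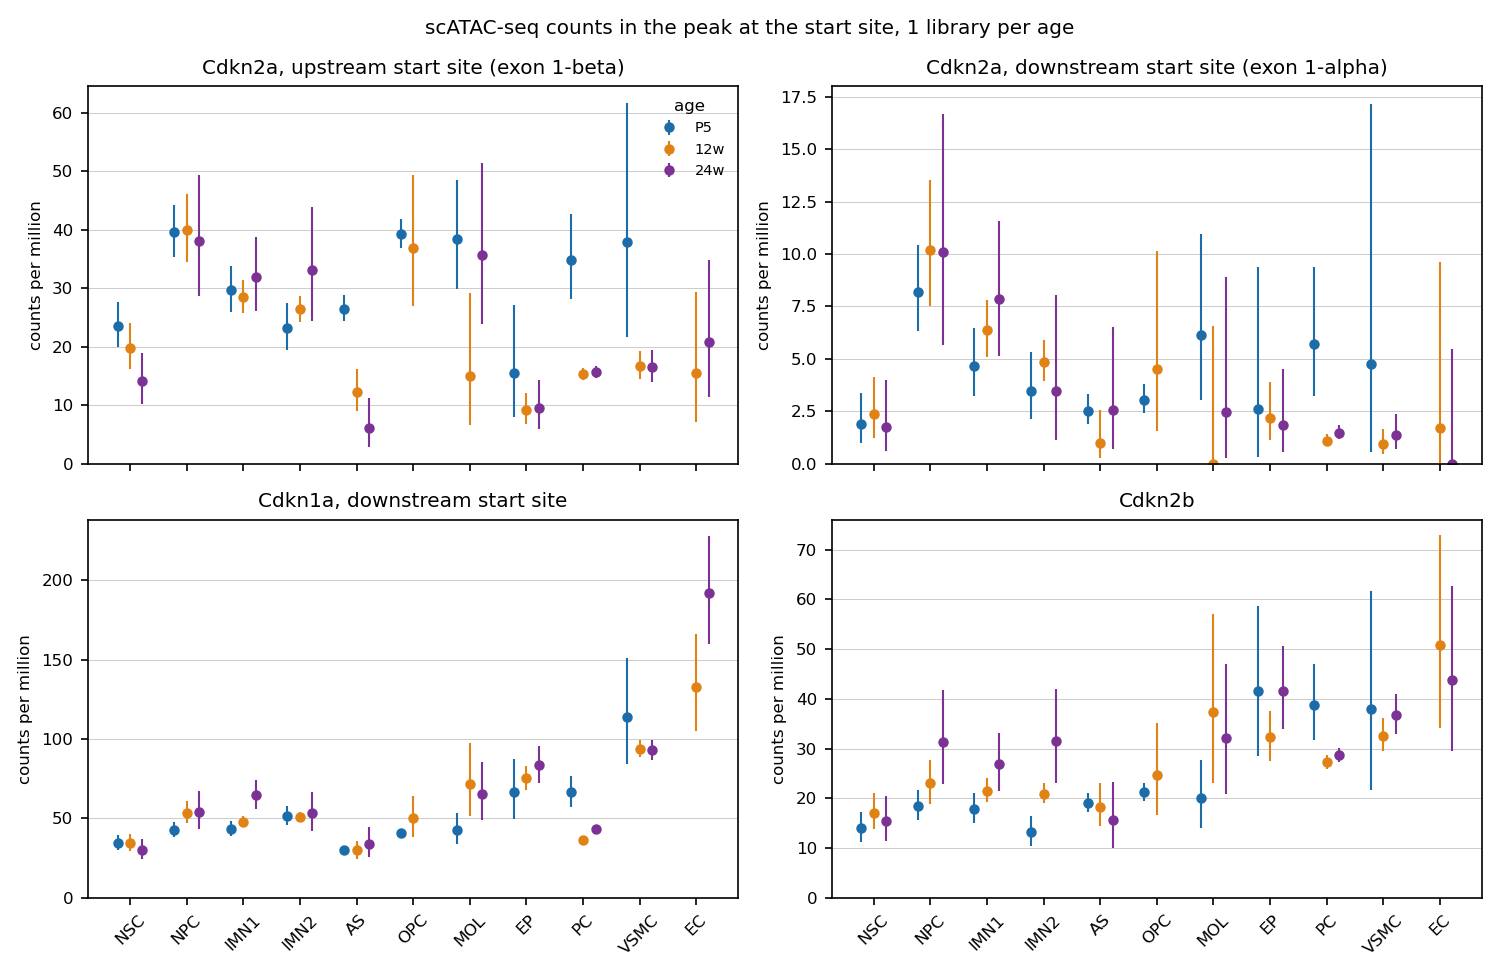
Counts in the peaks that reach within 1000 bases of the start sites Cdkn2a site 1, Cdkn2a site 2, Cdkn1a site 2 and Cdkn2b, as CPM of the class. Classes with at least 20 nuclei are drawn at P5, 12w and 24w. The axis is linear from 0, and bars are 95% exact Poisson intervals on the number of fragments, taken as counts divided by 2. Cdkn2a site 1 was lower in adult AS-like nuclei (26.5, 12.2 and 6.07), and Cdkn2b stood at 13.2, 20.9 and 31.5 in IMN2-like nuclei, a difference no longer past the rule at a label score of at least 0.7.

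A start site was counted as higher or lower where both adult libraries were at least 1.5-fold from P5 in the same direction. In NSC-like nuclei 0 of the 11 start sites tested were past this rule, against 3.56% of 14345 promoters higher and 9.59% lower. Cdkn2a site 1 in NSC-like nuclei had a 12w ratio of 0.845 (0.651 to 1.09) and a 24w ratio of 0.602 (0.419 to 0.848). In AS-like nuclei 1 of 11 was lower (13.4% of 14872 promoters) and 0 were higher (4.31%). It was Cdkn2a site 1, at 0.460 of P5 at 12w (0.336 to 0.616) and 0.240 at 24w (0.115 to 0.445), where the called peak covered 2056, 2071 and 1799 bases at the 3 ages. In IMN2-like nuclei 1 of 11 was higher (4.94% of 14336 promoters) and 0 were lower (4.09%). It was Cdkn2b, 1.58-fold higher at 12w (1.24 to 2.03) and 2.40-fold at 24w (1.63 to 3.50), with a peak of 1435, 1598 and 1700 bases. It no longer passed at a label score of at least 0.7 or at 2-fold. Its RNA in IMN2-like cells was 1 UMI at P5 and 0 in both adult libraries. In PC-like nuclei the median promoter was itself lower in the adult libraries, by a log2 ratio of -0.49 at 12w and -0.48 at 24w, and 35.8% of 14735 promoters were counted as lower. Of the 11 sites with a peak at P5, 0 were counted as higher (5.75% of promoters) and 4 as lower, namely Cdkn1a site 2, both Cdkn2a sites and Cdkn2c, at 12w ratios of 0.545, 0.441, 0.189 and 0.661. The peak at Cdkn1a site 2 covered 2863, 3074 and 2996 bases at the 3 ages and that at Cdkn2c 3532, 3845 and 3913 bases. Cdkn1a site 1 had no peak at P5 and one of 613 and 897 bases in the adult libraries. Its ratio rests on the 1 count added to every pool, by which it would pass as higher, and it was left out of the 11. The shares over all promoters keep sites without a peak at P5.

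In cultured NSCs the bulk RNA-seq addressed what the members did after knockdown of Setd8. TPM values were held for 4 libraries, and by the values of 170 genes these matched the study's own table of epigenetic genes as follows. The libraries labelled Ctrl_3, Setd8KD_1 and Setd8KD_2 carried the values of its 3 control columns, and the library labelled Setd8KD_3 those of a knockdown column. Setd8 itself stood at 154 TPM in Ctrl_3, 143 in Setd8KD_1, 143 in Setd8KD_2 and 36.4 in Setd8KD_3, so that 2 libraries labelled as knockdown carried the control level of the targeted gene. The members were therefore compared as 3 controls against the 1 knockdown library Setd8KD_3, in which Setd8 was at 24.8% of the control mean. These groups rest on that match of values and go against 2 of the sample titles. In what follows, the controls are the libraries labelled Ctrl_3, Setd8KD_1 and Setd8KD_2, and the knockdown is the library labelled Setd8KD_3. That library is on the knockdown side by its title too. A direction kept under the titles is therefore largely built in and is no separate support. The spread comes from the controls alone, the labels do not say that they were separate cultures, and in bulk samples fewer cells of a kind and less RNA per cell cannot be told apart. By limma on log2(TPM + 1), the scale of the log2 changes given here, 41.7% of the 12703 genes tested changed at an adjusted p under 0.05. With the libraries grouped by their titles, limma called 0 genes and 0 members (86 genes at an unadjusted p under 0.05), edgeR 0 and DESeq2 0, so every call given here depends on the grouping by values; the 4 members called below kept their direction, at log2 changes of 0.19 for Cdkn1a, 0.41 for Cdkn2b, -0.20 for Cdkn2d and -0.38 for Rbl1.

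Of the 10 members 4 changed, with 2 higher in the knockdown (20% of all genes tested) and 2 lower (21.7%), so that the members were called about as often as genes in general. Cdkn1a and Cdkn2b rose, and Cdkn2d and Rbl1 fell. The knockdown value lay outside the range of the 3 controls for 9 of the 10 members, Cdkn2a being the exception, and for 82% of all genes tested; 6 of the 10 members did not pass the test. By TPM, which is per length, Cdkn1a was the most abundant member in control NSCs at 946 ± 11.8 TPM (SD, n = 3), followed by Cdkn2c at 128 ± 12.6 and Cdkn1b at 96.5 ± 6.59. Cdkn1b and Cdkn2d (89.7 ± 4.72) overlapped between libraries, and Cdkn1c was the least abundant at 1.32 ± 0.200 TPM.

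**Figure D4:**
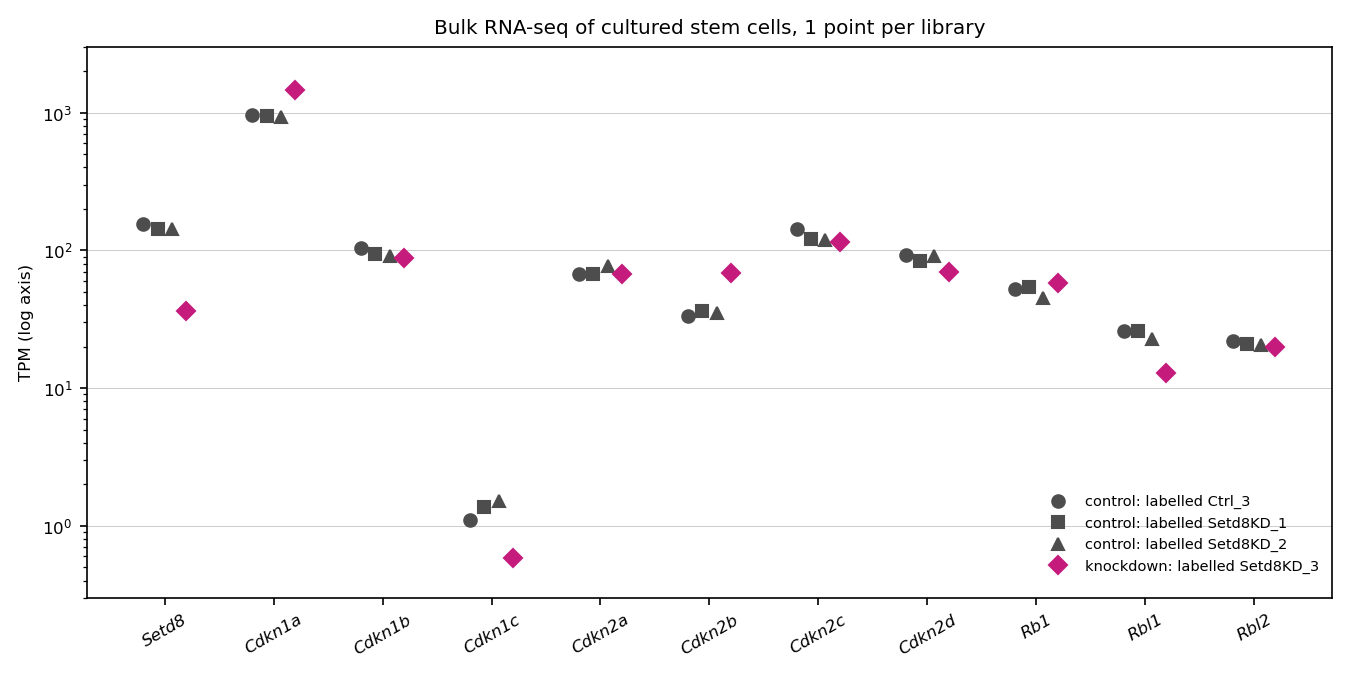
TPM of Setd8 and the 10 members in the 4 cultured NSC libraries on a logarithmic axis, 1 point per library, with the 3 libraries that carry control values (Ctrl_3, Setd8KD_1 and Setd8KD_2) and the knockdown library (Setd8KD_3) marked. The knockdown library lies above the controls for Cdkn1a (1461 TPM) and Cdkn2b (68.6 TPM) and below them for Cdkn2d (69.2 TPM) and Rbl1 (12.8 TPM).

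Among the CIP/KIP genes, Cdkn1a stood at 955, 951 and 933 TPM in the controls Ctrl_3, Setd8KD_1 and Setd8KD_2 and at 1461 TPM in the knockdown. The controls lay within a narrow range and the knockdown 1.54-fold above their mean, a log2 change of 0.63 (SE 0.046, limma adjusted p = 0.000255). Cdkn1b stood at 104, 94.6, 91.1 and 87.9 TPM, with the knockdown just below the lowest control (log2 change -0.13, adjusted p = 0.246). Cdkn1c, at 1.11, 1.36, 1.504 and 0.584 TPM, rested on 19, 24, 25 and 10 reads, and its log2 change of -0.55 (SE 0.212) missed the threshold (adjusted p = 0.0795). The added 1 TPM shrinks this change, and on recovered reads it was -1.18 by edgeR (adjusted p = 0.0550) and -1.19 by DESeq2 (adjusted p = 0.241).

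Among the INK4 genes, Cdkn2b stood at 33.3, 36.5 and 35.2 TPM in the controls and at 68.6 TPM in the knockdown. Its level was thus 1.96-fold that of the controls, with a log2 change of 0.95 (SE 0.078, adjusted p = 0.000371). Cdkn2a, which shares a chromosomal locus with Cdkn2b, stood at 67.6, 67.1 and 77.0 TPM in the controls and at 67.8 TPM in the knockdown, inside the control range (log2 change -0.05, SE 0.092, adjusted p = 0.669). Cdkn2c stood at 142, 121, 119 and 114 TPM, where the Ctrl_3 library was the highest and the knockdown lay next to the other controls (log2 change -0.15, adjusted p = 0.271). Cdkn2d, at 93.1, 84.3 and 91.7 TPM in the controls and 69.2 TPM in the knockdown, fell by 0.37 on the log2 scale (SE 0.075, adjusted p = 0.00900). The call on Cdkn2d was lost without a filter on low genes (adjusted p = 0.119), as was that on Rbl1 (adjusted p = 0.0571).

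Among the pocket proteins, Rbl1 stood at 26.1, 26.1 and 22.8 TPM in the controls and at 12.8 TPM in the knockdown. That was 1.95-fold lower, a log2 change of -0.91 (SE 0.105, adjusted p = 0.00108). Rb1, the first-described member of the family, stood at 52.1, 54.5, 45.5 and 58.1 TPM, with 1 control close to the knockdown (log2 change 0.20, SE 0.106, adjusted p = 0.179). Rbl2 stood at 22.1, 20.8, 20.4 and 20.02 TPM (log2 change -0.07, adjusted p = 0.538). edgeR and DESeq2, run on read counts recovered from the TPM values, called the same 4 members in the same directions. They called 44.7% of 13628 and 33.9% of 13236 genes.

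Genes of the pathways around the members were read from fixed lists, beside the median log2 change of 0.0011 over all genes tested. All 15 of the E2F target genes on the list fell, with a median log2 change of -0.93. They encode the replicative helicase, nucleotide synthesis and origin licensing, among them Tk1 (170, 174 and 178 TPM in the controls, 75.3 TPM in the knockdown, log2 change -1.2) and Mcm6 (213, 226, 221 and 111 TPM, log2 change -0.99). Of the 10 G1 cyclins and kinases 5 fell and 0 rose (median -0.13), where 21.7% of all genes tested fell and 20% rose. The S-phase cyclin Ccna2 fell by 1.14 and the cyclin E gene Ccne2 by 1.09 on the log2 scale, whereas the D cyclins Ccnd1, Ccnd2 and Ccnd3 had log2 changes of -0.10, -0.04 and 0.09, none past the test.

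The 10 E2F and DP factors had a median log2 change of -0.29, with the repressor E2f8 at -0.84 and the partner subunit Tfdp1 at -0.47. Of 6 genes of the MuvB core and B-Myb, with which Rbl2 or Mybl2 form complexes, 3 fell and 0 rose (median -0.38), namely Lin54 (-1.0), Lin9 (-0.60) and Mybl2 (-0.58). Of 13 genes for the turnover and control of the inhibitors 5 fell and 0 rose (7 and 2 by edgeR; median -0.20), beside 21.7% and 20% of all genes by limma and 44.7% called in either direction by edgeR. Those that fell were Dtl (-1.21), the substrate receptor for p21 degradation in S phase, Cdkn3 (-0.99), a phosphatase of CDKs, Cks1b (-0.98) and Skp2 (-0.70), which act in p27 degradation, and Ezh2 (-0.65), a Polycomb enzyme that represses the Cdkn2a locus.

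**Figure D5:**
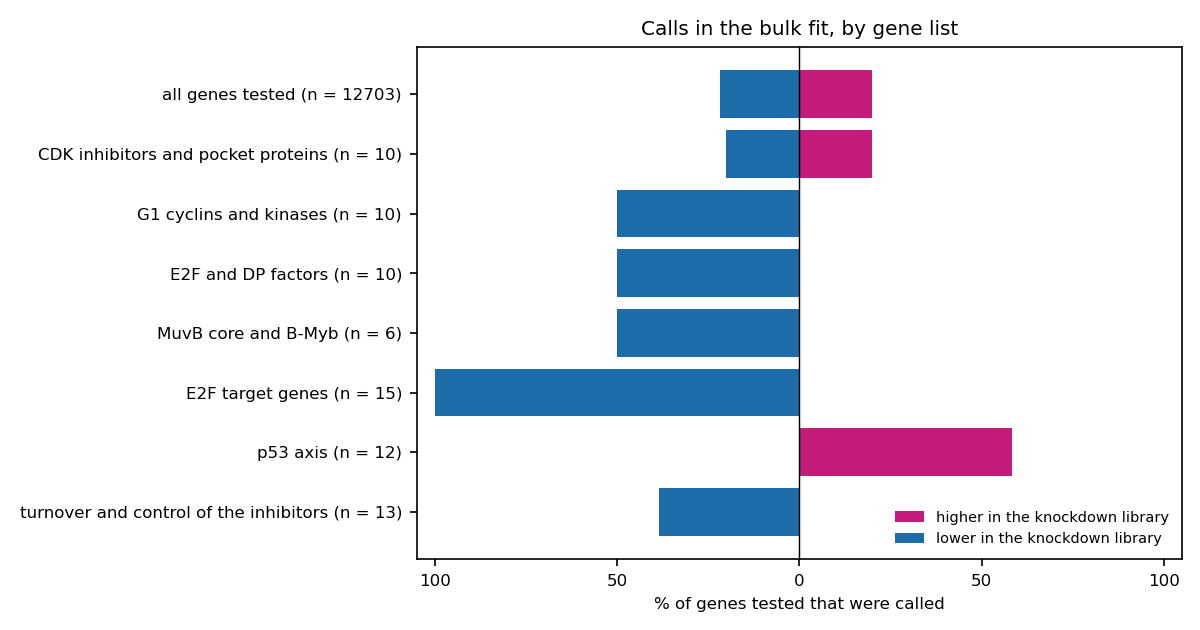
Percent of the genes tested in each fixed list that were called higher (to the right) or lower (to the left) in the knockdown library than in the 3 controls, beside all 12703 genes tested. All 15 E2F target genes were lower, and 7 of the 12 genes of the p53 axis were higher.

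Of 12 genes of the p53 axis 7 rose and 0 fell (by edgeR 7 rose and 1 fell), with a median log2 change of 0.40. They were the targets Bbc3 (38.3, 35.4 and 37.3 TPM in the controls, 90.8 TPM in the knockdown, log2 change 1.27), Gadd45a (1.2), Ccng1 (0.93), Sesn2 (0.73), Phlda3 (0.64), Zmat3 (0.45) and Bax (0.35). The rise of Cdkn1a by 0.63 lay within this range. Over all genes tested, 20% rose and 21.7% fell by limma, and 44.7% changed in either direction by edgeR. Trp53 itself had a log2 change of -0.15 (adjusted p = 0.0588), and the p53 target Mdm2, which encodes the ubiquitin ligase of p53, had one of -0.15 (adjusted p = 0.153), so neither passed the test.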

How the data were processed

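Single-cell libraries were made on the 10x Genomics platform. Alignment to mm10 was done by the authors in Cell Ranger, per the labels in version 2.2.0 (the study's methods name another version for the scATAC-seq), and the deposited matrices hold counts, either UMIs per gene and cell or transposase ends per peak and nucleus, with peaks listed for each age. The cultured NSC libraries were sequenced as single ends, trimmed with Trimmomatic and aligned to mm10 with STAR; the deposited files hold TPM, and the step that made it is not stated, though the study's list of tools names RSEM. Of 6 RNA samples labelled, 4 files held TPM; the other 2 held the gene names and the gene lengths whose row order pairs with them. The H4K20me1 and bulk ATAC samples were not analysed here. The 10 members and all gene lists were chosen with earlier results of these data known. The named genes were the 10 members, Setd8 and the 2 genes most like each member over pools. From each list the 2 with the smallest p by limma were named, and other list genes were named after their values were seen.

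Barcodes under 1000 UMIs or 500 genes, or with over 10% of UMIs from mitochondrial genes, were dropped, doublets were scored with Scrublet in scanpy and removed, and the cells were clustered in Seurat 5.3.0 at a resolution of 0.8 without the members among the variable genes. Clusters were named from fixed markers; the requirements on the leading genes, on a score gap of 0.1 and on haemoglobin were added after seeing the data. The P5, 12w and 24w libraries lost 932, 80 and 3 doublets; with so few marked, doublets may remain at 24w. Nuclei with 3000 to 100000 counts were labelled by transfer from the cells of the same age, using latent semantic dimensions 2 to 30 and 2000 bases upstream of each gene. For the bulk RNA-seq, limma 3.58.1 was run on log2(TPM + 1) for genes with a mean of at least 1 TPM, with Benjamini-Hochberg adjustment over all genes; fold changes on this scale understate those of low genes. Whole reads were recovered from TPM and gene length (100% of values between 0.5 and 50 reads lay within 0.02 of a whole number), giving 20040058 to 21493328 reads per library; edgeR 4.0.16 called 6089 genes on them, and DESeq2 1.42.0 was a further alternative. Scripts were tested on simulated data. Motifs were chosen with the promoter sequences in view.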

Additional observations from a re-analysis of the deposited data

Results flagged for a closer look

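Cdkn1a stood on opposite sides of P5 in different classes as pooled. It was higher in NPC-like cells, at 2.07 and 6.93 times P5 at 12w and 24w, and in VSMC-like cells, at 5.19 and 4.59 times P5, and it was lower in PC-like cells, at 0.479 and 0.351 of P5. Within the cluster that held most PC-like cells at P5, however, Cdkn1a stood at 17.9, 13.9 and 13.8 CPM at P5, 12w and 24w, with overlapping intervals, so the lower PC-like value was not seen there, and the VSMC-like value rests on 9 UMIs at P5. Cdkn2c also differed in direction: it was higher in IMN1-like cells (2.45 and 2.80 times P5) and in PC-like cells (2.33 and 2.01 times P5) and lower in AS-like cells (0.610 and 0.329 of P5), of which only the IMN1-like values passed the 2-fold rule. The differences between classes were not tested, since each age is 1 library. At 24w the AS-like value rests on 6 UMIs, and AS-like cells differed between ages in their make-up of clusters. PC-like cells came mostly from other clusters in the adult libraries than at P5. The cluster with 276 of 362 PC-like cells at P5 held 594 of 2417 at 12w and 382 of 1735 at 24w.

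A pair of P5 clusters outside every named class exceeded the highest named class of at least 50 cells. In a cluster of 451 P5 cells that carried markers of division together with Pdgfra, a marker of oligodendrocyte precursors, Cdkn2a stood at 9.07 CPM (5.28 to 14.5, from 17 UMIs), against 3.35 CPM in NPC-like cells. In a cluster of 137 P5 cells led by vascular genes such as Col4a1 and by Tubb6, which also carried markers of division (Mki67 at 211 and Top2a at 334 CPM), Cdkn2d stood at 449.97 CPM (411 to 492, from 485 UMIs), against 150 CPM in NPC-like cells.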

How the results depend on the processing

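No paired analysis was possible because TPM was held for only 1 knockdown library. In the bulk comparison the limma count fell from 5300 to 2234 genes and from 4 to 2 members without a filter on low TPM. Grouped by the deposited titles (Ctrl_3 against the 3 libraries labelled Setd8KD), limma called 0 genes and 0 members (86 genes at an unadjusted p under 0.05; edgeR and DESeq2 also 0), and Cdkn2a went to 0.060 on the log2 scale. Leaving out each control in turn gave 4026 to 5710 genes and 4 members each time; Cdkn2a lay between -0.087 and 0.010, changing sign without Setd8KD_2. In the single-cell data, NPC-like cells had 0 members higher with the median gene set to no change, and 2 (Cdkn1a and Cdkn1b) against P5 cells of like sex, at 1.5-fold or in the 24w library alone. IMN1-like cells had 1 (Cdkn2c) against P5 cells of like sex. With 1 adult library, an alternative chosen after seeing the data, NSC-like cells had 1 lower (Rbl1 at 12w, Cdkn2d at 24w) and IMN2-like cells 2 higher at 12w (Cdkn1b and Cdkn1c). At start sites, NSC-like nuclei had 1 higher at a label score of 0.7 (Cdkn1c) and 1 lower in the 24w library alone (Cdkn2a site 1); AS-like nuclei had 2 lower in either adult library alone and 2 higher at 24w alone (Cdkn1c and Cdkn2d); and IMN2-like nuclei had 0 higher at a score of 0.7 or at 2-fold. The peak at Cdkn1c covered 2908, 6530 and 6553 bases at P5, 12w and 24w. The cause of these moves was not tested. For the main counts, 87 of 98 other settings stayed within 1.5 times of the value reported, as did 20 of 28 added after seeing the data. For single members, 639 of 649 comparisons with another setting were rated the same. For bulk changes this meant the same direction and side of the threshold. For single-cell ratios it meant a value inside the interval of the main ratio, so a ratio could cross 2-fold and still be rated the same. Depth limits the 24w library, with 98 NSC-like, 44 NPC-like, 51 IMN1-like and 45 IMN2-like cells.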

Other observations

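The cluster with Pdgfra and markers of division and the one with Col4a1 were, like NPC-like cells, high in Cdkn2c and Rbl1. Cdkn2c stood at 269 CPM (246 to 293) in the first and 268 CPM (238 to 301) in the second, next to 249 CPM in NPC-like cells. Rbl1, the pocket protein gene with an E2F motif at its start site, stood at 20.3 CPM (14.3 to 27.8) and 24.1 CPM (15.8 to 35.3), next to 13.5 CPM in NPC-like cells. Cdkn1b, by contrast, was at 35.2 and 21.3 CPM, within the range of the named classes. Both clusters came almost wholly from the P5 library, with 451 of 455 and 137 of 137 cells.

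Over the 28 pools Cdkn2a and Rbl1 had a Pearson correlation of 0.84, but Cdkn2a held too few UMIs for this to be more than a description.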
